A study of Rattus norvegicus with 47 samples.

Results

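Eicosanoid synthesis genes were followed in lung and whole blood of rats that had inhaled crystalline silica or filtered air. The set was defined by name as 10 genes of the deposited count tables, and all 10 were found among the 30045 lines of each table. These genes were chosen with earlier results of these data known. Shares over all genes are therefore given beside the counts as a description, not as a test of the set. The lipoxygenase branch held Alox15, Alox5, Alox5ap, Ltc4s and Lta4h, and the cyclooxygenase branch held Ptgs1, Ptgs2, Ptges, Hpgds and Ptgds. All animals were healthy male Fischer 344 rats, an inbred strain, whose age was not used here. Exposed rats breathed crystalline silica particles (Min-U-Sil 5, a ground quartz product) at 15 mg/m3 in whole-body chambers for 6 h a day on 5 days, and air rats breathed filtered air in the same way. Tissue was taken 1 day or 6 months after exposure, giving silica and air groups of 6 libraries each in lung and blood at both times, except for air lung at 6 months with 5. The 47 libraries held between 9643524 and 25875975 counts.

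Eicosanoids are signalling lipids made from arachidonic acid, which phospholipases A2 release from membranes. In the lipoxygenase branch, 5-lipoxygenase (Alox5) and its membrane partner (Alox5ap) make leukotriene A4. Lta4h turns this into leukotriene B4, a neutrophil attractant, and Ltc4s turns it into the cysteinyl leukotrienes that constrict airways. In the cyclooxygenase branch, Ptgs1 and the inducible Ptgs2 make prostaglandin H2, from which terminal synthases make prostaglandin E2 (Ptges) or prostaglandin D2 (Hpgds in blood-derived cells, Ptgds best known from brain). Alox15 encodes a further lipoxygenase that maturing red cells of rabbit and mouse are known to use on mitochondrial membranes.

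The tissue labels were checked against marker genes. Summed levels in CPM (counts brought to a common library total, with TMM factors within each table to correct for library composition) of 5 alveolar type 2 genes lay between 11780 and 17940 in lung, and between 176 and 254 in blood. The surfactant gene Sftpc was at 0 in every blood library of 3 of the 4 blood groups. Heart muscle genes reached a summed 410 CPM in air lung 49 at 6 months. Because these are bulk samples, a change in the number of cells of a type and a change in RNA per cell cannot be told apart. The labels give no chambers, so treatment and chamber cannot be told apart either.

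In lung at 1 day, both branches had members that changed: Alox15 and Lta4h fell, and Alox5ap and Ptgs2 rose. This made 4 called members among 9 tested, with Ptges too low to test, against 14.1% of all 15331 genes tested (8.39% higher and 5.72% lower in silica). A call is an adjusted p under 0.05 in edgeR's quasi-likelihood test, and fold changes are log2 of silica over air ± SE.

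Alox15 ran over 6.14, 7.30 and 7.95 CPM (lowest, median and highest) in silica lungs, against 13.5, 15.2 and 18.1 CPM in air lungs. Every silica lung lay below every air lung. Mean levels were 7.09 ± 0.73 CPM in silica and 15.4 ± 1.59 CPM in air (SD, n = 6 each), a log2 fold change of -1.11 ± 0.089 (edgeR adjusted p = 2.33e-06). The counts behind these levels were 85 to 131 per silica lung and 204 to 372 per air lung.

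Lta4h, the leukotriene B4-forming hydrolase, ran over 132, 152 and 166 CPM in silica lungs, against 169, 182 and 214 CPM in air lungs. The groups did not overlap, and the log2 fold change was -0.30 ± 0.068 (edgeR adjusted p = 0.00735). Alox5ap moved the other way, at 33.2, 34.8 and 37.0 CPM in silica lungs and 24.4, 28.6 and 31.0 CPM in air lungs. Again no silica lung overlapped an air lung (log2 0.30 ± 0.052, edgeR adjusted p = 0.0015). Its enzyme partner Alox5 did not pass the test (log2 0.12 ± 0.066, edgeR adjusted p = 0.281), nor did Ltc4s at means of 1.45 CPM in silica and 1.86 CPM in air (log2 -0.35 ± 0.18, edgeR adjusted p = 0.235).

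Ptgs2, the inducible cyclooxygenase, ran over 1.22, 1.65 and 2.50 CPM in silica lungs, against 0.968, 1.12 and 1.33 CPM in air lungs. Of the 6 silica lungs, 5 lay above all air lungs, with 16 to 33 counts per silica lung and 15 to 25 per air lung. The rise (log2 0.58 ± 0.18, edgeR adjusted p = 0.0469) stood near the threshold and lost its call when any of 10 of the 12 libraries was left out, at adjusted p-values between 0.0324 and 0.108 over the 12 refits. It also lost its call in DESeq2 (adjusted p = 0.078), without a filter on low counts (0.0783) and with all 4 lung groups in 1 model (0.104). Ptgs1, the constitutive cyclooxygenase, had means of 41.9 ± 4.19 CPM in silica and 46.2 ± 2.43 CPM in air (SD, n = 6 each) and did not pass (log2 -0.14 ± 0.060, edgeR adjusted p = 0.146). Hpgds and Ptgds, the prostaglandin D2 synthases, gave log2 0.16 ± 0.18 and -0.032 ± 0.17 with adjusted p-values of 0.619 and 0.934.

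**Figure D1:**
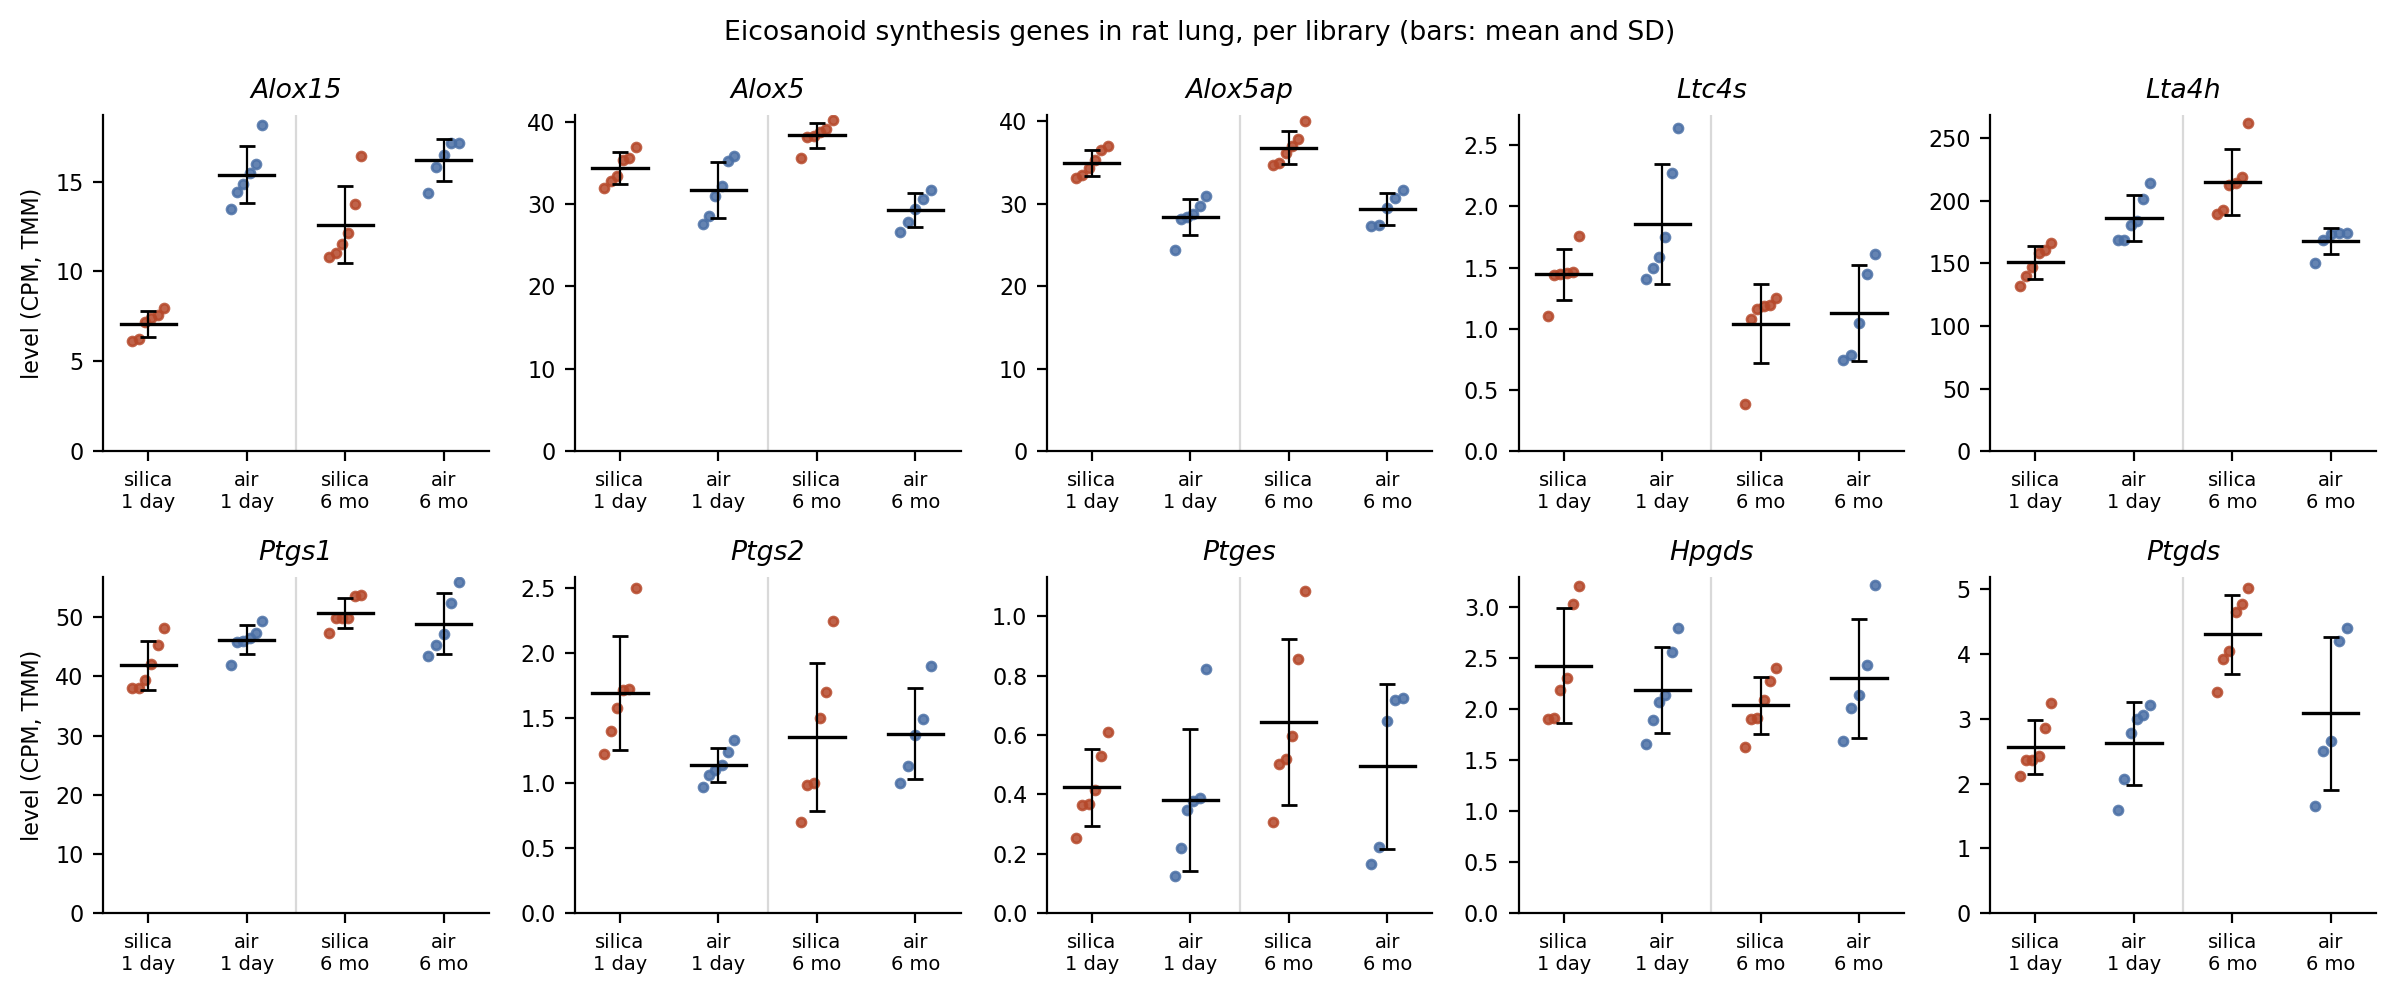
Level (CPM, TMM) of each of the 10 genes in every lung library, silica left of air at 1 day and 6 months; points are libraries in order of level, bars the mean and SD. Alox15 at 1 day separated fully, at 6.14 to 7.95 CPM in silica and 13.5 to 18.1 CPM in air, and Lta4h lay below air at 1 day and above air at 6 months.

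Cell type markers moved in the same lungs. All 7 neutrophil markers rose at 1 day, with summed levels of 303 to 672 CPM in silica and 114 to 242 CPM in air. Of 6 alveolar macrophage markers tested, 4 rose and 1 fell, at 602 to 785 CPM in silica and 449 to 715 CPM in air. Of 4 red cell markers 3 fell, Alas2 and Slc4a1 among them, at 26.8 to 41.8 CPM in silica and 44.2 to 52.0 CPM in air. Endothelial markers fell in 3 of 4, at 1790 to 1968 CPM in silica and 1971 to 2217 CPM in air. No marker of these 4 lists was at 0 throughout a group. Alveolar type 1 markers fell in 2 of 3, and 1 of 3 club cell and 1 of 4 platelet markers tested fell. Of 4 monocyte markers 2 rose and 1 fell, and of 5 alveolar type 2 markers 1 rose and 1 fell. None of 3 fibroblast and 2 mast cell markers tested passed. The part of these cells in the results for Alox5ap, Lta4h and Ptgs2 was not tested.

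Alox15 in lung was also set against red cell genes, since its level in blood was 6350 CPM or more in every library. Its counts over those of Alas2, the haem synthesis enzyme of red cell precursors, had medians of 0.262 (0.185 to 0.369) in silica lung and 0.424 (0.372 to 0.507) in air lung at 1 day. The ratio was below all air lungs in 6 of 6 silica lungs, with a log2 difference of -0.66 (two-sided exact permutation p = 0.00216, the smallest 6 against 6 allow, adjusted p = 0.0173 over 8 ratio tests). Over Slc4a1, the red cell anion exchanger, the difference was -0.47 (two-sided exact permutation p = 0.00866, adjusted p = 0.0346; 4 of 6 silica lungs below all air lungs). Alas2 itself fell by 0.44 (log2, ± 0.11, edgeR adjusted p = 0.0151) and Slc4a1 fell by 0.64 (log2, ± 0.14, edgeR adjusted p = 0.00699). Median ratios to Slc4a1 were 2.08 in silica and 2.61 in air lung at 1 day, and 1.91 in silica and 2.15 in air lung at 6 months. Air lungs at 1 day had the highest median ratio to Alas2 of all groups. These ratio tests were unplanned and reuse the Alox15 counts compared above, so they are no separate support for its fall. The part of red cells in the level of Alox15 was not tested.

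**Figure D2:**
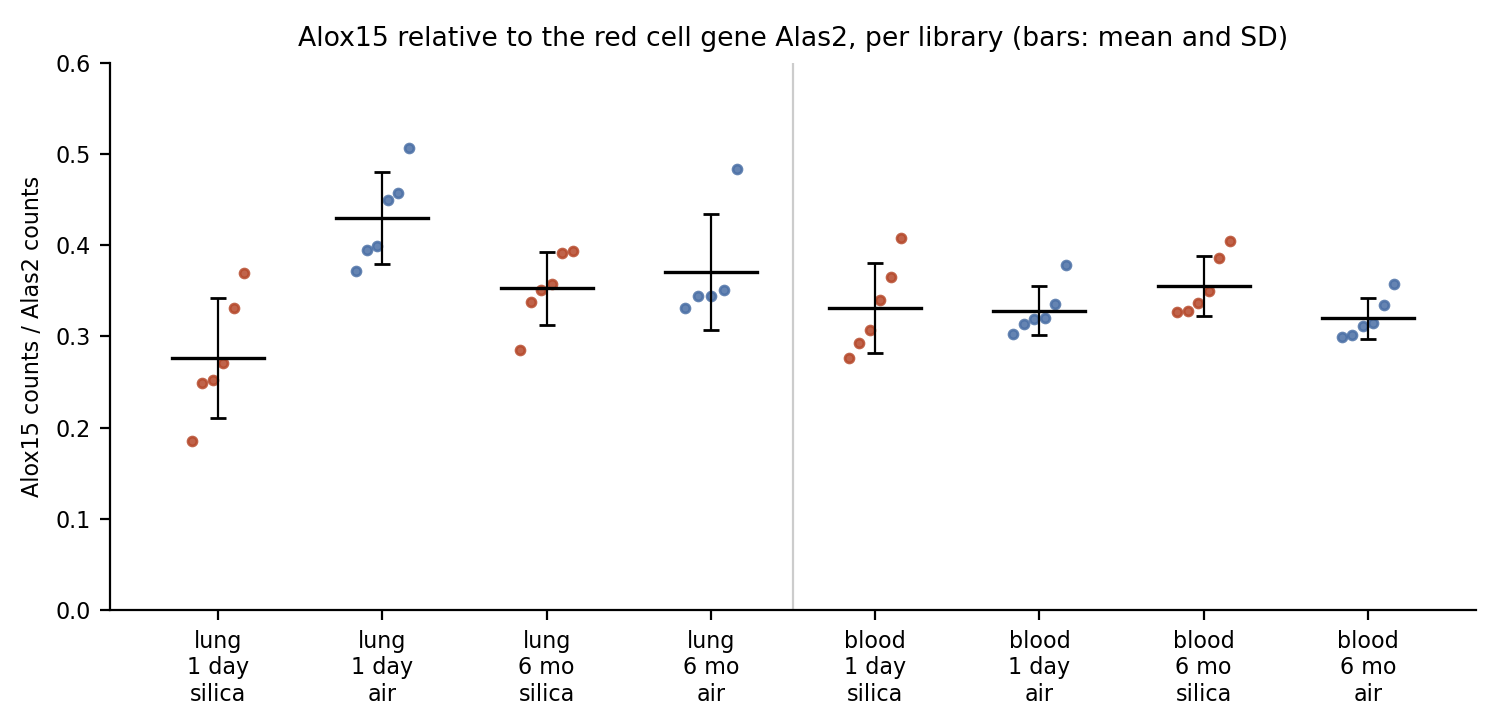
Alox15 counts over Alas2 counts in each lung and blood library, silica left of air at each time; points are libraries in order of value, bars the mean and SD. Silica lungs at 1 day had a median of 0.262 against 0.424 in air lungs, while the other 6 groups had medians from 0.313 to 0.354.

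In lung at 6 months Alox5, Alox5ap and Lta4h rose and Alox15 fell, while Ltc4s did not pass the test. These were 4 called members of 9 tested, against 16.2% of 15309 genes (9.84% higher and 6.38% lower in silica). No member of the cyclooxygenase branch passed.

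Alox5 ran over 35.6, 38.5 and 40.2 CPM in silica lungs. The 5 air lungs had 26.6, 27.9, 29.3, 30.6 and 31.7 CPM, all below the silica lungs. The means of 38.3 ± 1.52 CPM in silica (n = 6) and 29.2 ± 2.04 CPM in air (SD, n = 5) gave a log2 fold change of 0.38 ± 0.050 (edgeR adjusted p = 0.000407). Alox5ap ran over 34.7, 36.6 and 40.0 CPM in silica lungs, against 27.4, 27.4, 29.5, 30.8 and 31.7 CPM in air lungs, again without overlap (log2 0.32 ± 0.054, edgeR adjusted p = 0.00183).

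Lta4h ran over 189, 213 and 262 CPM in silica lungs, against 150.0, 168, 173, 174 and 174 CPM in air lungs. No silica lung was as low as any air lung (log2 0.35 ± 0.077, edgeR adjusted p = 0.00908). Leaving out any 1 library kept the calls for Alox5, Alox5ap and Lta4h, with adjusted p at most 0.00176, 0.00693 and 0.0269. Alox15 ran over 10.8, 11.8 and 16.4 CPM in silica lungs, against 14.4, 15.8, 16.5, 17.1 and 17.2 CPM in air lungs. Of the silica lungs 5 of 6 lay below all air lungs (log2 -0.37 ± 0.11, edgeR adjusted p = 0.032), and this call was lost in 7 of 11 refits that each left out 1 library, at adjusted p-values between 0.00387 and 0.0705.

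Alox15 over Alas2 had medians of 0.354 in silica lung and 0.344 in air lung at 6 months, a log2 difference of -0.066 (two-sided exact permutation p = 0.576). Over Slc4a1 the difference was -0.062 (two-sided exact permutation p = 0.781). None of the 4 red cell markers passed at 6 months, at summed levels of 39.0 to 60.9 CPM in silica and 41.6 to 65.9 CPM in air. Neutrophil markers rose in 4 of 7 (421 to 624 CPM in silica, 209 to 315 CPM in air) and alveolar macrophage markers in 6 of 6 tested (716 to 956 CPM in silica, 457 to 538 CPM in air). Of the mast cell markers 1 of 3 tested rose, at 3.81 to 13.8 CPM in silica and 2.73 to 7.01 CPM in air. Alveolar type 2 markers rose in 4 of 5, at 16060 to 17940 CPM in silica and 11780 to 14580 CPM in air, and endothelial markers fell in 4 of 4, at 1629 to 1849 CPM in silica and 2016 to 2265 CPM in air. Neither of these sums overlapped between the groups. Of 4 monocyte markers 1 rose and 2 fell, and 1 of 3 fibroblast and 1 of 3 alveolar type 1 markers fell, while none of 3 club cell and 4 platelet markers tested passed. No marker of the eosinophil, T cell, B cell, smooth muscle, heart muscle and mesothelial lists was called in either lung comparison, and no adipose marker could be tested. The part of these cells in the rise of Alox5, Alox5ap and Lta4h was not tested.

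Among the cyclooxygenase members at 6 months, Ptgs1 averaged 50.7 ± 2.51 CPM in silica and 48.8 ± 5.14 CPM in air (log2 0.045 ± 0.063, edgeR adjusted p = 0.68). Ptgs2 had 0.700 to 2.25 CPM in silica and 1.00 to 1.90 CPM in air (edgeR adjusted p = 0.957). Ptgds averaged 4.30 ± 0.61 CPM in silica and 3.08 ± 1.18 CPM in air and did not pass (log2 0.47 ± 0.22, edgeR adjusted p = 0.168). Ltc4s and Hpgds gave log2 -0.099 ± 0.29 and -0.18 ± 0.18 with adjusted p-values of 0.857 and 0.521. Ptges had at most 14 counts in any lung library, at means of 0.645 CPM in silica and 0.495 CPM in air at 6 months.

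The silica effect itself differed between times in lung for 2 of 9 members, against 1.12% of 15786 genes with a higher and 0.253% with a lower effect at 6 months. For Lta4h the log2 fold change was higher at 6 months than at 1 day by 0.66 ± 0.11 (edgeR adjusted p = 0.00252), which is a fall at 1 day and a rise at 6 months. For Alox15 it was higher by 0.75 ± 0.14 (edgeR adjusted p = 0.00621), a fall at both times that was smaller at 6 months. Alox5 (0.27 ± 0.085, edgeR adjusted p = 0.124) and Alox5ap (0.027 ± 0.074, adjusted p = 0.913) did not pass. The 1 day and 6 month libraries came in separate tables, so time of handling cannot be told apart from time after exposure.

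Promoters are printed for Alox5 and Lta4h, which rose together at 6 months, and for Ptgs2, which rose at 1 day. RefSeq's table for GRCr8 held a promoter of 7 of the 10 genes and none for Alox15, Alox5ap and Hpgds. Each is given 5′ to 3′ on the strand of the gene, from 250 bases before to 50 bases after its start. Capitals mark matches, on either strand, to 5 short motifs. The GC box known from the factor Sp1 was searched as GGGCGG, and the E box, which reads the same on both strands, as CACGTG. The box known from the factor NF-Y was searched as CCAAT. The TATA box of core promoters was searched as TATAAA. The motif of the GATA factors was searched as AGATAA.
Alox5, chr4:151251077-151251376, minus strand: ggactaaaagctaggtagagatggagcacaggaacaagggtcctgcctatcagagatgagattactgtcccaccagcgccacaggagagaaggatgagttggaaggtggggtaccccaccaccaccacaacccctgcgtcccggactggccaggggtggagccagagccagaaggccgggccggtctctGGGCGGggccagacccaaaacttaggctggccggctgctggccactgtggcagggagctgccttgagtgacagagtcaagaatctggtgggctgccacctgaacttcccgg
Lta4h, chr7:29856621-29856920, plus strand: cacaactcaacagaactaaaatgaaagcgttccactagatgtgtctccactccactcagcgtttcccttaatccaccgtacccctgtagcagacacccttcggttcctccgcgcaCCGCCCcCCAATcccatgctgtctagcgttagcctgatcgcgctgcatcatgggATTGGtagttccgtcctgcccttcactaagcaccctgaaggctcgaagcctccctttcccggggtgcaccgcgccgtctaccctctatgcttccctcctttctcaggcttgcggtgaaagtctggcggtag
Ptgs2, chr13:64713813-64714112, plus strand: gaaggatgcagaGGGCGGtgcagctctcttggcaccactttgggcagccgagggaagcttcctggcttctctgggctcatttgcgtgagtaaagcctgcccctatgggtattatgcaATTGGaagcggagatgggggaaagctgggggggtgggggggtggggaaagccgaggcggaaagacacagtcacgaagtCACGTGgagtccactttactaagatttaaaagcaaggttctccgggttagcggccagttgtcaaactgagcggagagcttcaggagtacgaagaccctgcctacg
Alox5 had a GC box beginning 61 bases before its start, and no other match. Lta4h had a GC box on the opposite strand at 135 bases, a CCAAT box at 128 bases and a reversed CCAAT box at 81 bases before its start. Ptgs2 had a GC box at 238 bases, a reversed CCAAT box at 133 bases and an E box at 55 bases before its start. None of these matches overlapped another. Of 33469 promoters in the table, 33.1% held a GC box, 37.5% a CCAAT box, 6.42% an E box, 14.2% a TATA box and 11.6% a GATA motif. The matches are descriptions of the letters in these windows and were not tied to the changes in level.

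In blood at 1 day, 2 lipoxygenase members rose, Alox5 and Alox5ap, and no cyclooxygenase member passed the test. Of 10 members 7 could be tested, and the 2 that rose compare with 1.19% of 12253 genes higher and 0.18% lower in silica. Alox5ap ran over 82.1, 104 and 105 CPM in silica blood, against 71.2, 75.4 and 79.2 CPM in air blood. The groups did not overlap, and the log2 fold change was 0.37 ± 0.068 (edgeR adjusted p = 0.0165). Alox5 ran over 18.8, 23.1 and 25.7 CPM in silica blood, against 13.4, 17.0 and 20.2 CPM in air blood. Of the silica libraries 5 of 6 lay above all air libraries (log2 0.43 ± 0.094, edgeR adjusted p = 0.037), and the call was lost in 10 of 12 refits without 1 library, at adjusted p-values between 0.0149 and 0.0972.

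Lta4h in blood at 1 day ran over 47.0, 48.5 and 53.9 CPM in silica, against 41.8, 45.4 and 46.4 CPM in air. The groups did not overlap, yet the difference did not pass over all genes (log2 0.15 ± 0.046, edgeR adjusted p = 0.158). Neutrophil markers in the same blood rose in 5 of 7, at 3474 to 4260 CPM in silica and 2122 to 2703 CPM in air, and no marker was at 0 throughout. The part of neutrophils in these values was not tested.

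Alox15 in blood took 0.735% ± 0.114 of counts in silica and 0.801% ± 0.0782 in air at 1 day (SD, n = 6 each), and 1.04% ± 0.124 in silica and 0.931% ± 0.0942 in air at 6 months. At 1 day it ran over 6350, 6789 and 9633 CPM in silica blood, against 6738, 7834 and 10670 CPM in air blood. These groups overlapped and the difference did not pass the test (log2 -0.20 ± 0.13, edgeR adjusted p = 0.566), and at 6 months the log2 value was 0.11 ± 0.11 (adjusted p = 0.782). Its ratio to Alas2 in blood had medians of 0.323 in silica and 0.32 in air at 1 day, and of 0.343 in silica and 0.313 in air at 6 months. The tests on the ratios in blood gave exact permutation p-values between 0.0303 and 0.97, none under 0.05 when adjusted over the 8 tests (lowest adjusted p = 0.0808). Summed red cell markers in blood ran from 22770 to 28030 CPM in silica and from 26080 to 40000 CPM in air at 1 day, and none of the 4 passed.

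**Figure D3:**
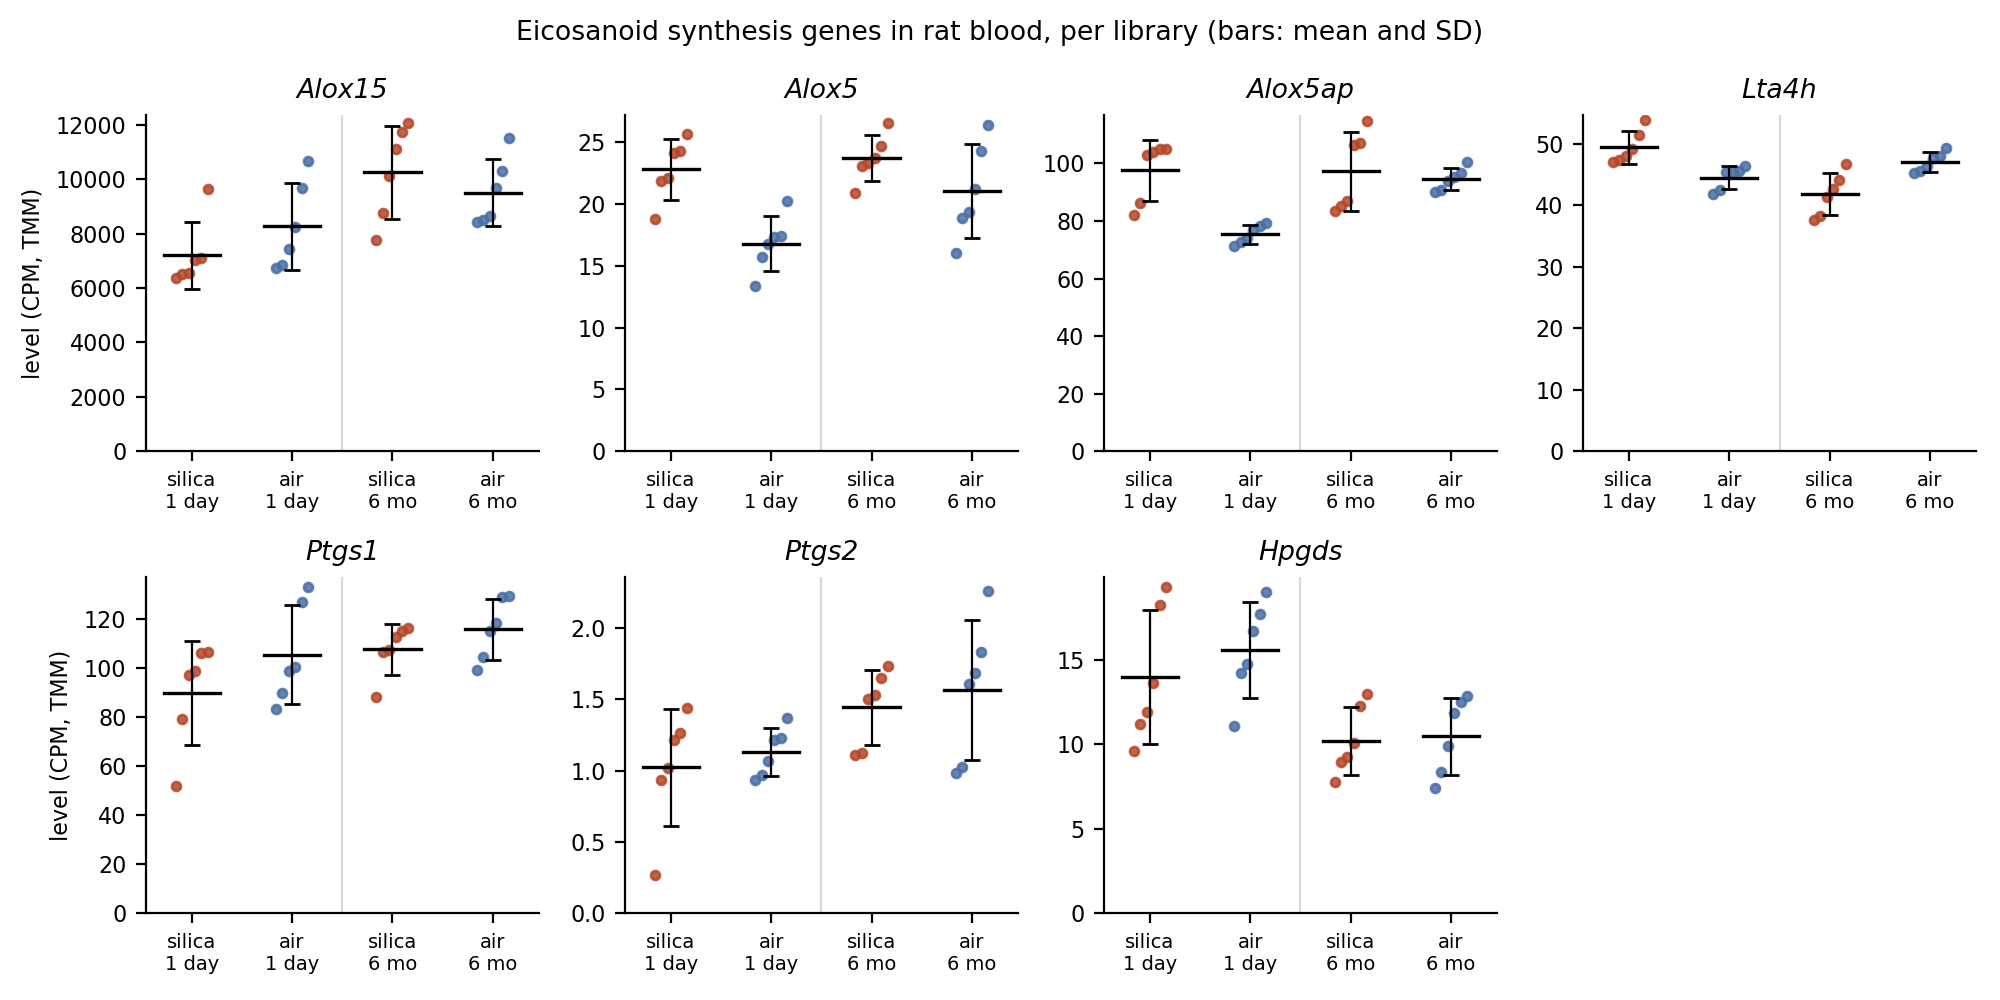
Level (CPM, TMM) in every blood library of the 7 genes that could be tested, silica left of air at 1 day and 6 months; points are libraries in order of level, bars the mean and SD. Alox5ap at 1 day lay at 82.1 to 105 CPM in silica and 71.2 to 79.2 CPM in air, and at 6 months both groups overlapped.

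Ptgs1, whose product platelets use to make thromboxane, ran over 51.8, 98.2 and 107 CPM in silica blood at 1 day, against 83.4, 99.8 and 133 CPM in air blood (log2 -0.23 ± 0.16, edgeR adjusted p = 0.592). In silica blood 43 it was the lowest of its group, as was the summed level of 8 platelet markers at 1286 CPM. No platelet marker passed in blood at either time. Hpgds had 14.0 ± 3.95 CPM in silica and 15.6 ± 2.84 CPM in air (SD, n = 6 each; log2 -0.17 ± 0.17, edgeR adjusted p = 0.733). Ptgs2 gave a log2 value of -0.17 ± 0.29 (edgeR adjusted p = 0.864).

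Ltc4s, Ptges and Ptgds were not tested in blood. Ptgds had 0 counts in all 24 blood libraries, which allows up to 3 counts per library, or 0.156 to 0.311 CPM. Ptges had 1 count in 1 air library and otherwise 0, and Ltc4s had at most 8 counts per silica library and 11 per air library.

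In blood at 6 months no member passed, against 0.0086% of 11629 genes. By an unadjusted p under 0.05 in edgeR there was 1 of 7, Lta4h. The share of all genes under that unadjusted cut was not worked out, so this count has no background beside it. DESeq2 and limma-voom also called 0 members. Lta4h ran over 37.7, 42.0 and 46.7 CPM in silica and 45.2, 47.0 and 49.3 CPM in air (log2 -0.17 ± 0.058, edgeR adjusted p = 0.539). Alox5ap averaged 97.2 ± 13.7 CPM in silica and 94.5 ± 3.87 CPM in air (SD, n = 6 each; log2 0.044 ± 0.080, edgeR adjusted p = 0.889). Alox5 averaged 23.7 ± 1.87 CPM in silica and 21.0 ± 3.79 CPM in air (log2 0.18 ± 0.10, edgeR adjusted p = 0.614). For the silica effect over time in blood no member passed (0 of 7, with 0% of 12444 genes called by edgeR and 1326 genes, 2 members among them, at an unadjusted p under 0.05). DESeq2 called 1, Lta4h, at a difference of log2 fold changes of -0.31 (adjusted p = 0.0136).

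The silica effect was compared between lung and blood in 1 fit per time, which treated libraries with the same animal number as independent. At 1 day, Lta4h (difference of log2 fold changes, lung minus blood, -0.49 ± 0.084, edgeR adjusted p = 0.000843) and Alox15 (-0.95 ± 0.18, adjusted p = 0.00253) differed, against 4.03% of 15989 genes. At 6 months Lta4h differed in the other direction (0.49 ± 0.095, edgeR adjusted p = 0.00485), against 3.53% of 15790 genes. Alox5 and Alox5ap did not pass between tissues at either time, with adjusted p-values between 0.0854 and 0.569.

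**Figure D4:**
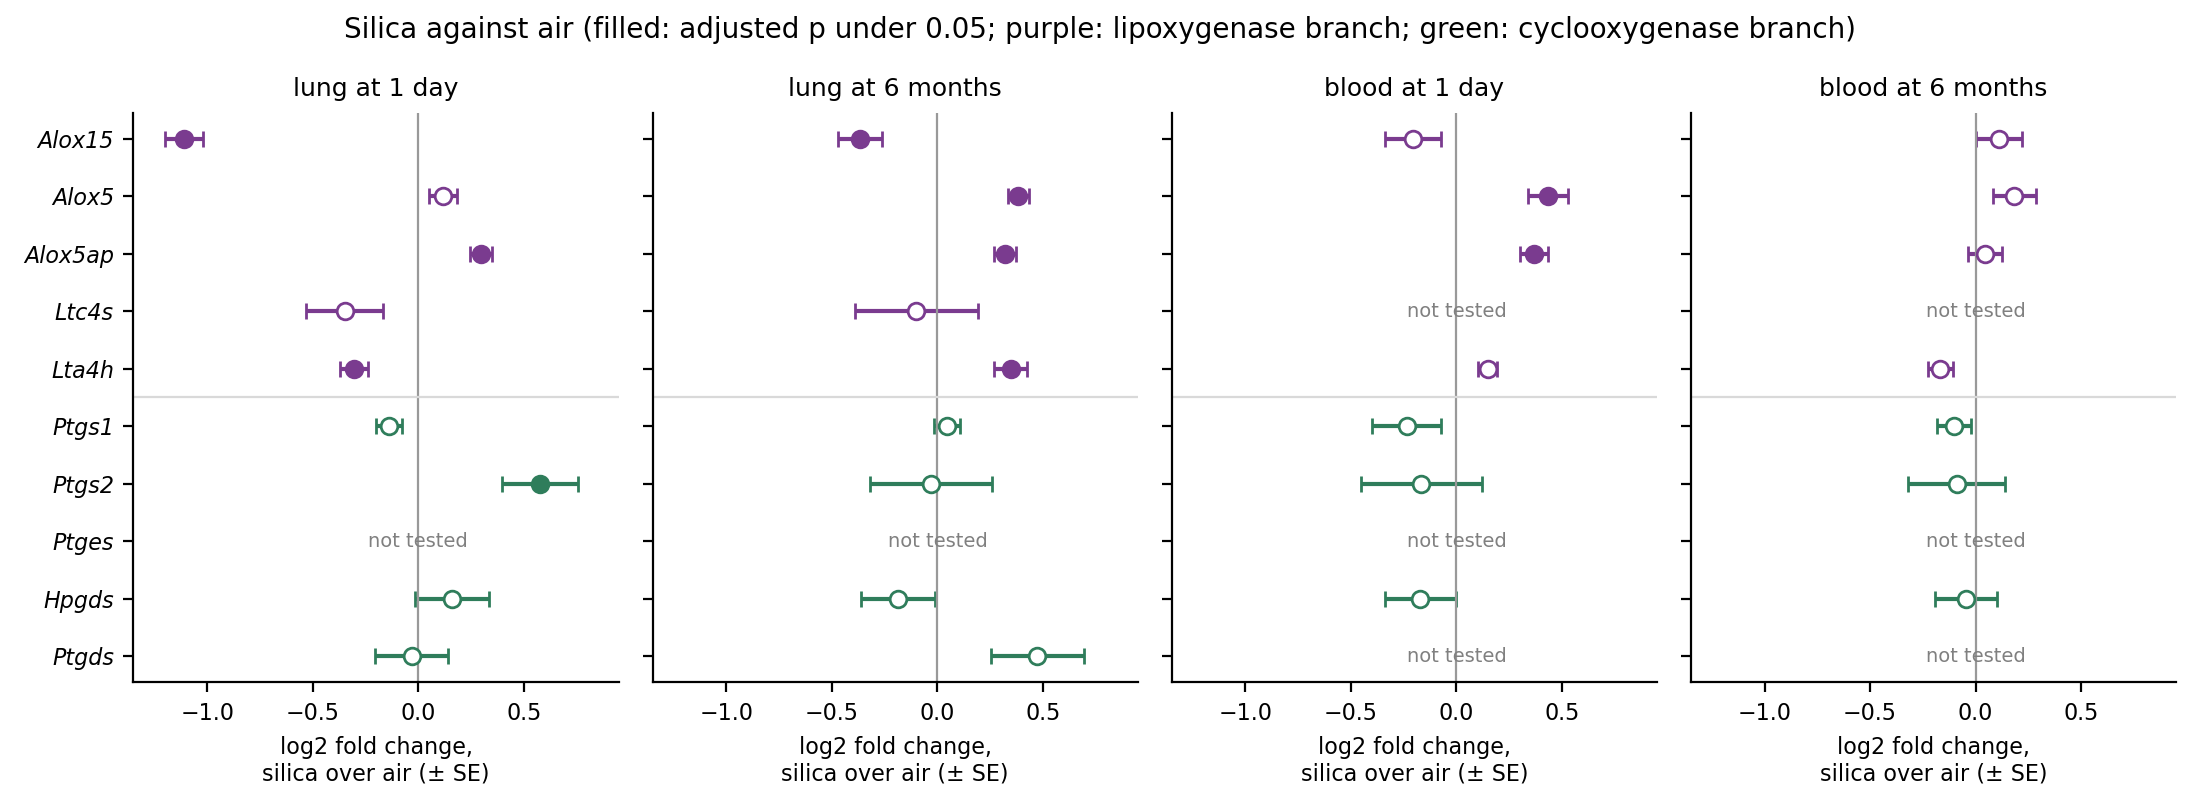
Log2 fold change of silica over air ± SE for each gene and comparison, with filled points where the adjusted p was under 0.05, purple for the lipoxygenase branch and green for the cyclooxygenase branch. Lta4h changed sign between lung at 1 day (-0.30) and 6 months (0.35), and filled points in the cyclooxygenase branch were limited to Ptgs2 in lung at 1 day.

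By branch, lipoxygenase members were called in 3 of 5 in lung at 1 day (1 higher, 2 lower), 4 of 5 in lung at 6 months (3 higher, 1 lower), 2 of 4 in blood at 1 day and 0 of 4 in blood at 6 months. Cyclooxygenase members were called in 1 of 4 in lung at 1 day, 0 of 4 in lung at 6 months and 0 of 3 in blood at each time. Over all genes tested, 14.1% were called in lung at 1 day and 16.2% in lung at 6 months, 1.19% were higher and 0.18% lower in blood at 1 day, and 0.0086% were called in blood at 6 months. Median log2 fold changes of the lipoxygenase branch were -0.30 in lung at 1 day, 0.32 in lung at 6 months, 0.26 in blood at 1 day and 0.077 in blood at 6 months. Those of the cyclooxygenase branch were 0.063, 0.0072, -0.17 and -0.090 in the same order, and those of all genes tested lay between -0.010 and -0.0024.

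The mean of the members per library, in log2 CPM relative to the air mean, showed how far branches overlapped. The lipoxygenase mean was -0.40 to -0.17 in silica lungs at 1 day, against -0.11 to 0.15 in air lungs, without overlap. That separation rested on Alox15: with it left out, a choice made after the values were seen, the mean of the other 4 members was -0.18 to 0.023 in silica lungs and -0.11 to 0.20 in air lungs, which overlapped. At 6 months the lipoxygenase mean of all 5 members was -0.20 to 0.21 in silica lungs and -0.12 to 0.12 in air lungs, with silica 64 the lowest. Its silica mean was 0.12 with that library and 0.18 without it. In blood at 1 day the lipoxygenase mean with Alox15 was 0.116 to 0.304 in silica and -0.097 to 0.162 in air, which overlapped. With Alox15 left out it was 0.238 to 0.386 in silica and -0.135 to 0.0866 in air, without overlap. In blood at 6 months the lipoxygenase mean overlapped with and without Alox15. The cyclooxygenase mean overlapped between silica and air in all 4 comparisons. No test was made of these means or of a difference between the branches.

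**Figure D5:**
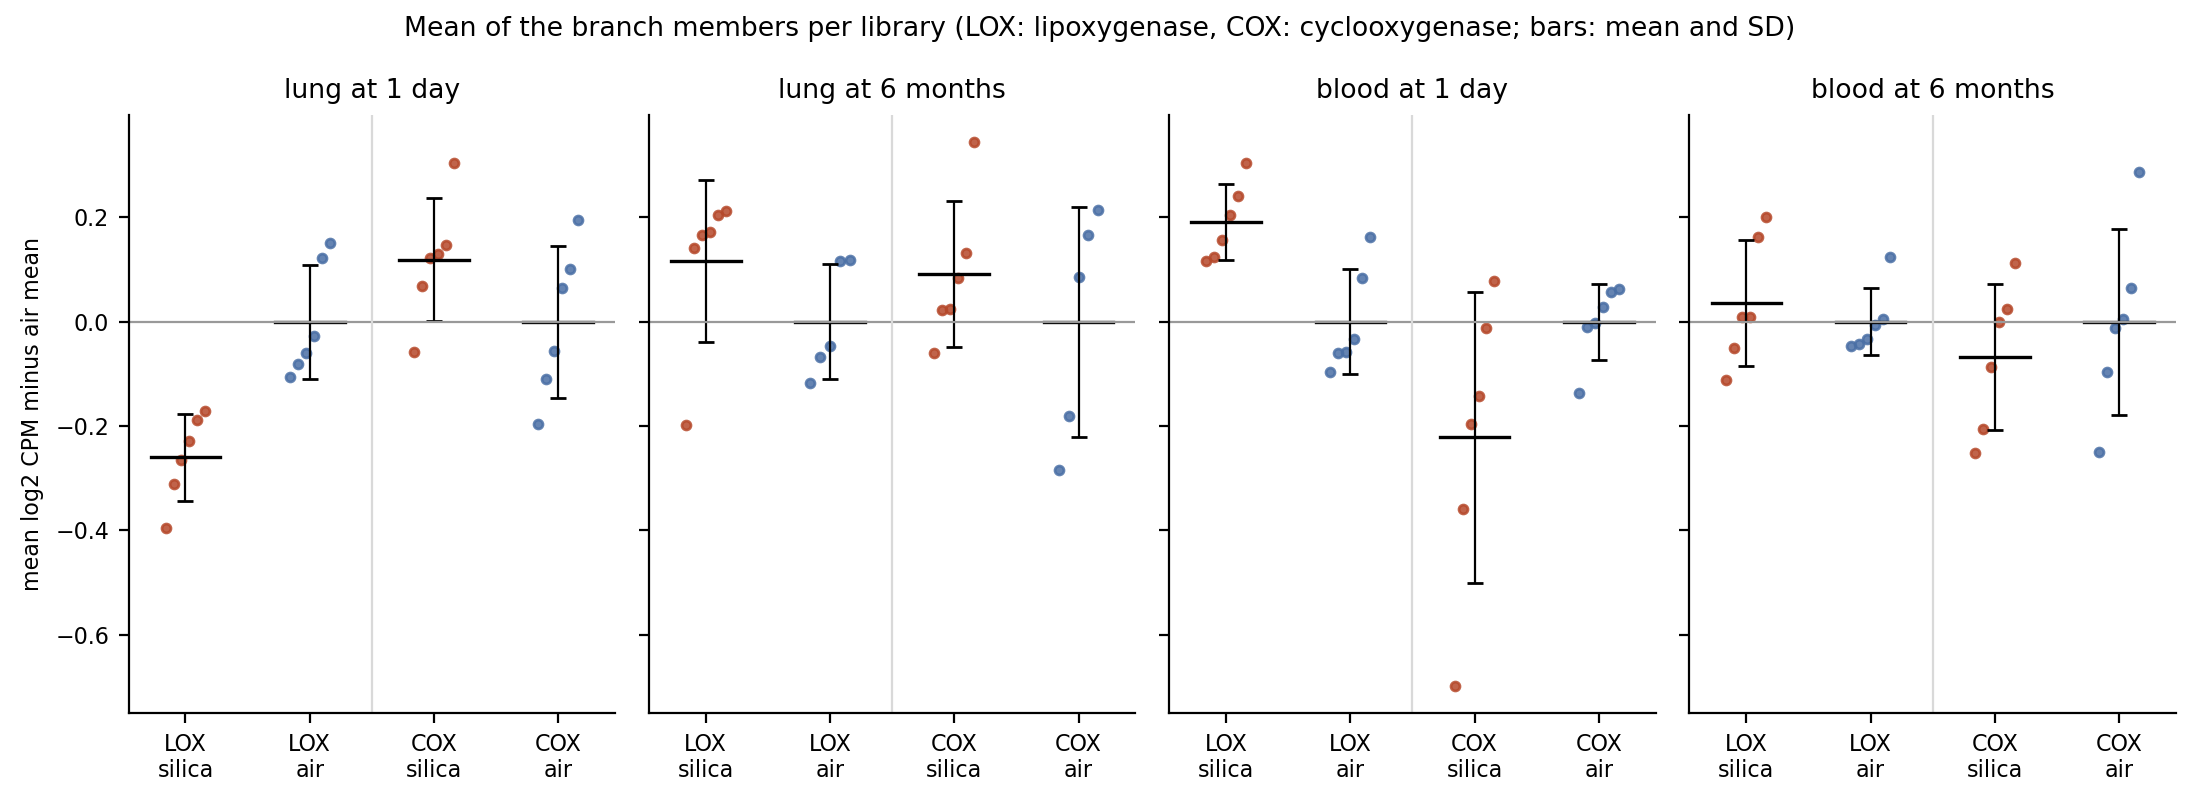
Mean over branch members of log2 CPM minus the air mean in each library, lipoxygenase (LOX) and cyclooxygenase (COX), silica left of air; points are libraries in order of value, bars the mean and SD. LOX means at 1 day were -0.40 to -0.17 in silica lungs and -0.11 to 0.15 in air lungs, whereas COX means overlapped in each panel.

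The wider pathway was read from 56 other genes on 57 lines, of which 43 were tested in each lung comparison, 36 in blood at 1 day and 34 in blood at 6 months. In lung at 1 day 1 of 43 rose and 7 fell, where 8.39% of all genes tested were higher and 5.72% lower in silica. Both called phospholipases fell: Pla2g2d, a secreted enzyme, averaged 105 ± 25.6 CPM in silica and 194 ± 22.2 CPM in air (log2 -0.88 ± 0.13, edgeR adjusted p = 0.000432), and Pla2g15, a lysosomal enzyme, averaged 89.5 ± 12.4 CPM in silica and 138 ± 11.5 CPM in air (log2 -0.62 ± 0.081, adjusted p = 0.000154). Hpgd, which inactivates prostaglandins, fell (log2 -0.31 ± 0.045, edgeR adjusted p = 0.00037), as did Cmklr1, a receptor for chemerin and resolvin E1 (log2 -0.23 ± 0.036, adjusted p = 0.000631). Mgst3, Dpep1 and Aloxe3 fell by 0.23, 0.13 and 0.30 on the log2 scale, and 1 of 2 lines named Ggt5, a leukotriene-cleaving enzyme, rose by 0.59. Pla2g4a, the phospholipase that frees arachidonic acid in cells, did not pass (log2 0.019 ± 0.059, edgeR adjusted p = 0.877).

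In lung at 6 months 5 of 43 pathway genes rose and 2 fell, a share close to the 16.2% of all genes called (9.84% higher and 6.38% lower in silica). Pla2g1b, a secreted phospholipase, averaged 134 ± 10.2 CPM in silica and 89.4 ± 9.24 CPM in air (log2 0.58 ± 0.069, edgeR adjusted p = 0.000249). Tbxas1, thromboxane synthase, averaged 27.2 ± 3.34 CPM in silica and 18.8 ± 2.06 CPM in air, without overlap (log2 0.53 ± 0.093, edgeR adjusted p = 0.00253). Ptger2, a prostaglandin E2 receptor, averaged 5.10 ± 0.46 CPM in silica and 3.395 ± 0.40 CPM in air (log2 0.58 ± 0.11, edgeR adjusted p = 0.00407). Fam213b, a prostaglandin F synthase, and the exporter Abcc4 rose by 0.44 and 0.19 on the log2 scale (edgeR adjusted p = 0.0351 and 0.0446). The prostaglandin carrier Slco2a1 and Aloxe3 fell by 0.23 and 0.31.

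The silica effect of 3 phospholipases, from a list of 15, differed between times in lung. Over all 15786 genes tested, 1.12% had a higher and 0.253% a lower effect at 6 months. The differences were 0.96 ± 0.19 for Pla2g2d, 0.70 ± 0.11 for Pla2g15 and 0.51 ± 0.10 for Pla2g1b (log2, 6 months minus 1 day, edgeR adjusted p = 0.00831, 0.00173 and 0.0109). In blood at 1 day the leukotriene C4 exporter Abcc1 was the 1 pathway gene called of 36 tested, and it fell (log2 -0.36 ± 0.082, edgeR adjusted p = 0.0479). Over all 12253 genes tested there, 1.19% were higher and 0.18% lower in silica. In blood at 6 months 0 of 34 passed, where 0.0086% of all genes tested were called.

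Genes with the most similar levels were ranked by Pearson's r over the 23 lung libraries, after subtracting each group's mean, as a description with no test; the points share depth and composition. Closest to Lta4h were Anxa2 (0.903), Anxa5 (0.901) and Tagln2 (0.899). Among the 3 closest to Alox5 were Hk3 (0.824) and Sidt2 (0.813). Closest to Alox5ap was Zbtb5 (0.772), to Ptgs2 was Nipsnap3b (0.778) and to Alox15 was Gatsl3 (0.808). Each is among the 3 highest of 11222 or 11223 genes compared, and the level that chance would give was not worked out. Ptgs2 had only 9 to 33 counts per lung library. In the 24 blood libraries, a ranking added after the values were seen, Ptgs1 stood closest to Pcmt1 (0.969), Stom (0.968) and Tax1bp1 (0.961), and Alox15 to Stk40 (0.939).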

How the data were processed

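Lung and whole blood were sampled, with globin RNA depleted from blood, and stranded libraries were prepared from mRNA, per the labels' protocols. Tools listed without role or order in the submitters' processing notes were STAR 2.6.1d, Salmon 1.10.1, Trim Galore 0.6.7, cutadapt 3.4 and bcl2fastq 2.19, beside the build Rnor_6.0. The authors deposited estimated counts per gene (expected counts, not normalized), 1 table per tissue and time, which were rounded to whole numbers here. Of the gene names, 266 stood on more than 1 line. Such estimates divide reads among near-identical genes, whose values are therefore uncertain.

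Each table was fitted whole in R 4.3.3 by edgeR's (4.0.16) quasi-likelihood F test (on TMM factors; genes kept by filterByExpr at a minimum count of 10; p-values adjusted over all genes by Benjamini-Hochberg, threshold 0.05). The SE was taken as the absolute log2 fold change divided by the square root of F. Differences between times and tissues were interaction terms over 4 groups. CPM are TMM-scaled within a table. Depth limits low genes, and a floor of 3 counts covers counting error only. Gene lengths were not used here, so levels of different genes are not compared. Replicates differed by a chi-square per degree of freedom of 3.76 to 35.3, more than sampling noise.

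Lung and blood titles share animal numbers, taken as the same rat because each title gives 1 number, which the labels do not state outright. With group means removed, the correlation across genes of lung and blood with the same number ran from -0.076 to 0.207 in 12 pairs at 1 day and from -0.13 to 0.192 in 9 pairs at 6 months. The p-values within a tissue set the difference between groups against the spread between animals. The main fits of lung against blood treated libraries with the same animal number as independent, and only the block by animal kept the pairing.

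The 10 genes and the lists were chosen with earlier results of these data known. All 10 were always named; pathway genes were named when past the threshold, up to 4 per list in lung and 2 in blood; similar genes were the 3 with the highest r. Some genes met by these rules are not reported here. The marker lists were neutrophil, eosinophil, mast cell, alveolar macrophage, monocyte, platelet, T cell, B cell, epithelial, endothelial, fibroblast, muscle, adipose, mesothelial and red cell; Ccr2 was not found by the name used. Alternatives were DESeq2 1.42.0, limma-voom 3.58.1, RLE factors, a minimum count of 50, no filter, all 4 groups of a tissue in 1 model, red cell and mitochondrial RNA genes left out, a prior count of 0.5, the animal as a block and each library left out. Leaving out libraries for the lung time difference and the branch means, and Alox15 from the lipoxygenase mean, was chosen after seeing the data. The ratio tests of Alox15 over red cell genes were not among the planned tests. Tests were checked on simulated data.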

Additional observations from a re-analysis of the deposited data

Results flagged for a closer look

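Libraries that stood apart from their group were looked for in 72 combinations of gene and group, and 4 were found. Chance gives about 1 in 20 combinations, so this number is near what chance alone would give. Alox15 in silica blood 45 at 1 day was the highest of its group at 9633 CPM, with the next at 7118 CPM. Ltc4s in silica lung 64 at 6 months was the lowest at 0.3886 CPM, from 5 counts, with the next at 1.077 CPM. Lta4h in air lung 53 at 6 months was the lowest at 150.0 CPM, with the next at 168.5 CPM. Ptgs1 in silica blood 63 at 6 months was the lowest at 88.3 CPM, with the next at 106.6 CPM, and the summed platelet markers of that library were also the lowest of the group, at 2161 CPM.

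The silica effect differed between groups by the test of the difference itself in 5 cases. In lung, from 1 day to 6 months, the log2 fold change of Alox15 differed by 0.753 and that of Lta4h by 0.656. Between lung and blood at 1 day it differed by -0.948 for Alox15 and by -0.495 for Lta4h, and at 6 months by 0.488 for Lta4h. Members tested were 9 for the lung time difference, 9 for the tissues at each time and 7 for the blood time difference, where 0 passed. The 9 between tissues include Ptgds, whose difference could not be estimated because it had 0 counts in blood, which leaves 8. Over all genes, 1.12% had a higher and 0.253% a lower effect at 6 months in lung. Shares called were 4.03% between tissues at 1 day, 3.53% at 6 months and 0% for the blood time difference.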

How the results depend on the processing

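Of 102 values for called members under other settings, 99 kept direction and call and 3 lost the call (Ptgs2 in lung at 1 day). Of 162 values without 1 library, 135 kept the call and 27 lost it, all for Ptgs2 in lung at 1 day, Alox15 in lung at 6 months and Alox5 in blood at 1 day. For members not called, 306 of 313 values under other settings stayed as they were. Ptgs1 in lung at 1 day gained a call in 1 refit (lowest adjusted p = 0.0407). Of 114 values for the branch means, 112 moved by less than the spread between animals. The other 2 left Alox15 out of the lipoxygenase mean, which was then -0.0493 in silica lung at 1 day (-0.26 with it) and 0.319 in silica blood at 1 day (0.191 with it).

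DESeq2 called 1 member for the time difference in blood and 2 for the tissue difference at 6 months (Lta4h and Alox15, -0.52, adjusted p = 0.0438). With the replicate block by animal, which keeps only animals with both tissues, 2 members were called at 1 day and 1 at 6 months, as without it. Members not called changed sign under this block at 6 months (Hpgds 0.0706, Ptgs1 -0.0328, Ptgs2 -0.0476) and under limma-voom (Ltc4s at 1 day -0.101, Ptgs2 at 6 months -0.104). The cause was not tested.

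Without 1 library, 1 to 2 members were called in blood at 1 day, 3 to 4 in each lung comparison, and 2 for the lung time difference. Uncalled values that crossed 0 ranged from -0.138 to 0.0256 (Ptgds, lung, 1 day), -0.219 to 0.0577 (Ltc4s, lung, 6 months), -0.214 to 0.104 (Ptgs2, lung, 6 months) and -0.293 to 0.0471 (Ptgs2, blood, 1 day). In blood at 6 months they ranged from -0.0083 to 0.0842 (Alox5ap), -0.126 to 0.0248 (Hpgds) and -0.204 to 0.0448 (Ptgs2), and for the lung time difference from -0.00516 to 0.0599 (Alox5ap).

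Over all genes, DESeq2 called 360 in blood at 1 day (edgeR 168), 85 for the blood time difference (edgeR 0) and 1012 for the tissue difference at 6 months (edgeR 557). The block called 415 of the tissue differences at 1 day (645 without it) and 202 at 6 months (557 without it). Low counts limit Ptgs2, Ltc4s, Ptges, Hpgds and Ptgds in lung.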
